A study of Mus musculus with 7 samples.

Results

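Genes of iron-sulfur cluster assembly and of iron uptake, storage and export were followed in the soleus, a postural hindlimb muscle, of wild type and Yy1 knockout mice. The set held 8 genes by name, Iscu, Nfs1, Isca1, Glrx5, Tfrc, Fth1, Ftl1 and Slc40a1, and a probe set counted as a member when the platform annotation gave it exactly 1 gene symbol and that symbol was in the set. Of 22690 probe sets on the array, 12 regular ones met this rule and covered 6 of the 8 genes, and 3 further ones were Tfrc sequences that the array carries as controls. Glrx5, of the glutaredoxin that passes clusters on from the scaffold, had no probe set. Ftl1, of the ferritin light chain, stood only on 3 probe sets that also name other genes, so neither gene was measured here.

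The arrays were 3 from mice with the genotype wild type and 4 from mice with the genotype Yin Yang 1 (YY1) knockout, all 6 months old and of mixed background (C57Bl/6 and 129), with no treatment named. YY1 is a zinc finger transcription factor. The labels do not say which part of the gene was removed, in which cells or with what driver. They do not tie each array to an animal of its own either, so p-values cover only the spread among these 7 samples, which may be technical. Values are log2(intensity + 1), on which array medians lay between 7.13 and 7.17 and the highest value of an array between 15.57 and 15.63. Of 4 Yy1 probe sets, 3 fell, to 30.7%, 49.2% and 58.8% of wild type, and the other, at 5.26 log2 units in wild type, measured 5.20 in knockout. All 10 fibre markers checked, such as Acta1, Myh7 and Des, had wild type means of at least 14.22 log2 units.

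Iron-sulfur clusters are cofactors that carry electrons in the respiratory chain and sit in enzymes such as aconitase. In the mitochondrion the desulfurase NFS1 takes sulfur from cysteine, the scaffold ISCU holds the cluster while it is built, and carriers such as ISCA1 deliver it to target proteins. Iron reaches the cell when the transferrin receptor, the Tfrc product, takes up iron-loaded transferrin. Ferritin, made of the Fth1 and Ftl1 products, stores it, and ferroportin, the Slc40a1 product, is the known route of iron out of the cell. Iron regulatory proteins act on the mRNAs of these last genes, stabilising that of Tfrc and blocking translation of those of ferritin and ferroportin when iron is short, so an array reads only part of that control.

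The iron exporter gene fell most, the assembly genes fell by modest amounts, and the ferritin heavy chain gene showed no change past the threshold. Of the 12 probe sets, 8 fell, none rose and 4 did not pass, where over all 22626 probe sets tested 28.6% passed the threshold, an adjusted p of 0.05, with 14.3% lower and 14.3% higher in knockout. The groups did not overlap in 10 of the 12, all lower in knockout, against 36.4% of all probe sets in either direction and 17.9% with knockout lower. Brighter probe sets passed more often. In a fit of only the 11313 above the median level, 47.5% passed, 2719 lower and 2660 higher in knockout. Of the 9 members among them, 6 passed. The median log2 fold change of the 12 was -0.29, beside 0.0069 over all probe sets tested. These 12 are not independent, since several read the same transcript. The members, like the lists below, were chosen with earlier results of these data known. Setting them against all probe sets is thus description and no independent support. With wild type array 3 or knockout array 2 left out, 5 of the 12 passed.

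**Figure D1:**
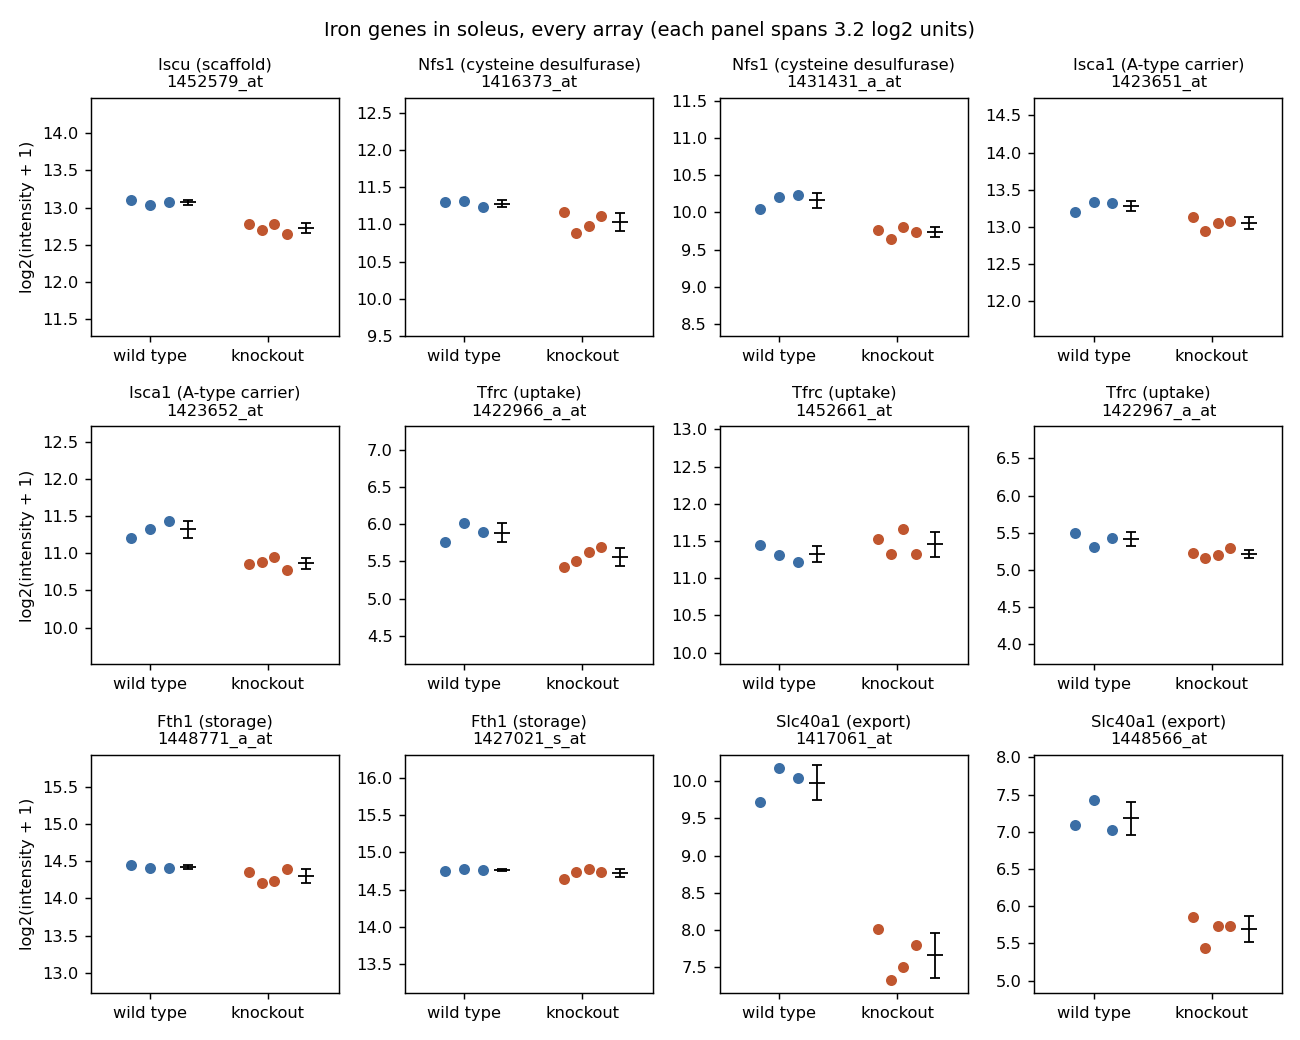
Log2(intensity + 1) of every member probe set (1 panel each, all panels spanning the same range) in the 3 wild type arrays (blue) and 4 knockout arrays (orange), with the mean and SD of each group beside the points. Both Slc40a1 panels show the groups far apart, the Iscu, Nfs1 and Isca1 panels show a small downward step, and the groups overlap in Tfrc 1452661_at and Fth1 1427021_s_at.

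All 5 probe sets of the assembly genes Iscu, Nfs1 and Isca1 fell, to between 73.0% and 85.2% of wild type. Their log2 fold changes lay between -0.45 and -0.23, and the median size of a change past the threshold over all probe sets was 0.45. Of the 10 fibre markers, 3 fell, namely Myh2 (-0.46) and Ckm (-0.21), of fast myosin and muscle creatine kinase, and the myoglobin gene Mb (-0.41). Another 4 rose, namely Des (0.54), of the intermediate filament protein desmin, and the slow troponin genes Tnni1 (0.40), Tnnc1 (0.25) and Tnnt1 (0.21). The median of the 10 was 0.11, and their summed intensity lay between 354896 and 371037 in wild type and between 364940 and 377305 in knockout. All 10 had wild type means of at least 14.22 log2 units. The top of the scale lay at 15.57 to 15.63, so their changes and their sum may be understated. Single fibre markers thus moved, in either direction, by about as much as the assembly genes fell, and their part in that fall was not tested.

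Iscu, of the scaffold on which clusters are built, was read by 1 probe set. It measured 13.10, 13.04 and 13.07 log2 units in the wild type arrays and 12.78, 12.70, 12.78 and 12.65 in the knockout arrays. Every knockout array lay below every wild type array, and the arrays of a group lay close together. The log2 fold change was -0.34 (SE 0.055, limma adjusted p = 0.00219, lower in 4 of 4 knockout arrays), or 78.8% of the wild type level.

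Nfs1, of the cysteine desulfurase that supplies the sulfur, was read by 2 probe sets, and both were lower. Probe set 1431431_a_at measured 10.05, 10.21 and 10.23 in wild type and 9.76, 9.65, 9.80 and 9.74 in knockout. The groups did not overlap, and the log2 fold change was -0.43 (SE 0.066, limma adjusted p = 0.00189). The other, 1416373_at, measured 11.30, 11.31 and 11.23 in wild type and 11.16, 10.89, 10.98 and 11.11 in knockout. Its knockout arrays were also all below the wild type ones, but knockout arrays 1 and 4 came close to the lowest wild type array, and the call for the fall of -0.24 (SE 0.074, limma adjusted p = 0.0393) was not stable. It was lost without wild type array 1 (limma adjusted p = 0.106), 2 (0.117) or 3 (0.071) and without knockout array 2 (0.0756) or 3 (0.0856), with arrays centred on their median (0.0604) and with quantile normalization (0.0524), within a range of 0.0241 to 0.117 over all settings.

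Isca1, of an A-type carrier that works with the ISCA2 protein, gave the same picture in its 2 probe sets. Probe set 1423652_at measured 11.20, 11.33 and 11.43 in wild type and 10.85, 10.88, 10.95 and 10.78 in knockout, a log2 fold change of -0.45 (SE 0.071, limma adjusted p = 0.002). No knockout array reached a wild type one. Probe set 1423651_at measured 13.20, 13.33 and 13.32 in wild type and 13.13, 12.94, 13.06 and 13.08 in knockout. The gap between the groups was small here, and its log2 fold change of -0.23 (SE 0.065, limma adjusted p = 0.0292) lost its call without wild type array 2 (0.0998) or 3 (0.0925), without knockout array 2 (0.0627), 3 (0.0555) or 4 (0.0517), and with quantile normalization (0.115). The fall in the fits that lost the call was still between -0.24 and -0.14, and adjusted p ranged from 0.0165 to 0.115 over all settings.

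Of the measured assembly genes, Nfs1 and Isca1 had RefSeq windows, so the sequences before their starts are shown. Whether these genes share control was not tested. The windows are the 250 bases before the annotated start, from RefSeq (GRCm38.p6), written 5′ to 3′ on the gene's strand. Nfs1 lies at chr2:156144187-156144436 on the minus strand and Isca1 at chr13:59769790-59770039 on the minus strand. Capitals mark CTTCCGG or its reverse complement, letters that factors of the ETS family such as GABP bind and that are common before mitochondrial genes.
Nfs1: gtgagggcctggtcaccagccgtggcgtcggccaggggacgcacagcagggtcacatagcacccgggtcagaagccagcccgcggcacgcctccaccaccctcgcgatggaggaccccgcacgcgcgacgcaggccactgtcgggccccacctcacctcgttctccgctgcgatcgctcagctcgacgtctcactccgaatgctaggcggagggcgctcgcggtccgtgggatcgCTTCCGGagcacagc
Isca1: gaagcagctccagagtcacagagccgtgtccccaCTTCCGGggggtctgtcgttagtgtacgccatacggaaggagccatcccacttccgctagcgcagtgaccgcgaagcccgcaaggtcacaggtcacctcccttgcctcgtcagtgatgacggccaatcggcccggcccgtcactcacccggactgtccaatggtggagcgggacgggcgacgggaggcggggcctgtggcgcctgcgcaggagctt
The Nfs1 window held 1 match, beginning 15 bases before the start, and a further one began at base 8 after it, outside the printed part. The Isca1 match began 216 bases before the start. This motif was chosen after the sequences had been read, and 8.86% of 32851 RefSeq windows, each of 250 bases before and 50 after a start, hold it on either strand. RefSeq windows were at hand for 6 of the 8 genes (8 windows, with 2 each for Tfrc and Fth1), and the Nfs1 and Isca1 windows were the 2 of them with a match. Letters of the YY1 motif, CCATNTT and ATGGCGG on both strands, occurred in 0 of the 8 windows, where 16.1% and 4.05% of all windows hold them. The loop letters of the iron-responsive element, CAGTGN on the transcript strand from the start on, also occurred in 0 of the 8, against 7.08% of all windows. That search covered only the 50 bases after the start. It cannot show whether these mRNAs hold the element further along, at their 3′ end included. Such counts describe these stretches only. Iscu and Slc40a1 are named without a sequence.

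The transferrin receptor gene was read by 3 regular probe sets, of which 1 dim one fell and the other 2, the bright one among them, did not pass. Probe set 1452661_at measured 11.44, 11.31 and 11.22 log2 units in wild type and 11.53, 11.32, 11.66 and 11.32 in knockout. Knockout arrays 1 and 3 were the highest of the 7, the others overlapped with wild type, and the log2 fold change was 0.13 (95% interval -0.09 to 0.36, limma adjusted p = 0.353). The interval leaves room for a rise but not for a fall as large as that of the assembly genes.

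The other regular Tfrc probe sets lay below the array medians. Probe set 1422966_a_at measured 5.76, 6.01 and 5.89 in wild type and 5.42, 5.50, 5.63 and 5.69 in knockout, and fell by 0.33 on the log2 scale (SE 0.086, limma adjusted p = 0.0221). That call was lost without wild type array 2 (0.0882) or 3 (0.0691) or knockout array 2 (0.059), in a range of 0.0165 to 0.0882 over all settings. Probe set 1422967_a_at measured 5.50, 5.31 and 5.43 in wild type and 5.23, 5.16, 5.20 and 5.29 in knockout, with a log2 fold change of -0.19 (SE 0.064, limma adjusted p = 0.0561). Here the groups stood apart by a very narrow margin, and without wild type array 2 the probe set passed (limma adjusted p = 0.0353). The range of adjusted p over all settings was 0.0353 to 0.172.

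The 3 Tfrc control probe sets, which read the 5′, middle and 3′ parts of the mRNA, measured between 4.52 and 4.81 log2 units on every array. In a fit with the controls included, their log2 fold changes were -0.014 (5′ part), -0.095 (middle) and -0.068 (3′ part), and none passed (limma adjusted p = 0.209 to 0.879). No detection call was used, so whether these probe sets and the dim regular ones read Tfrc above background was not tested. The gap between the bright probe set and each dim one widened in knockout by 0.46 and 0.32 log2 units (two-sided exact permutation p = 0.0857 and 0.0571, and 0.15 and 0.133 after adjustment over the 7 pairs of probe sets of a gene). No difference between Tfrc probe sets passed, but this test had little room to pass. The smallest permutation p of the design was 0.0286, and the Slc40a1 pair at that limit became 0.133 after adjustment.

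Fth1, of the ferritin heavy chain that oxidises iron for storage, was high on every array. Probe set 1427021_s_at, whose suffix marks probes that match several transcripts, measured 14.75, 14.78 and 14.76 in wild type and 14.64, 14.74, 14.77 and 14.74 in knockout. The groups overlapped, and the log2 fold change was -0.037 (95% interval -0.16 to 0.086, limma adjusted p = 0.65). Probe set 1448771_a_at measured 14.45, 14.41 and 14.41 in wild type and 14.36, 14.21, 14.23 and 14.40 in knockout. Its knockout arrays 2 and 3 were the lowest and knockout array 4 almost touched wild type, for a log2 fold change of -0.12 (95% interval -0.27 to 0.022, limma adjusted p = 0.188). Both probe sets read high on a scale whose top lay at 15.57 to 15.63, and near-identical copies of this gene in the genome may share its probes.

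Slc40a1, of the iron exporter ferroportin, fell in both probe sets. The brighter, 1417061_at, measured 9.72, 10.18 and 10.04 log2 units in wild type and 8.01, 7.33, 7.50 and 7.80 in knockout. The highest knockout array was still far below the lowest wild type one. The mean went from 9.98 ± 0.24 (SD, n = 3) to 7.66 ± 0.30 (SD, n = 4), which is -2.32 as a log2 fold change (SE 0.17, limma adjusted p = 8.28e-05), or 4.99-fold lower. The second, 1448566_at, measured 7.09, 7.43 and 7.02 in wild type and 5.85, 5.44, 5.73 and 5.74 in knockout, a log2 fold change of -1.49 (SE 0.12, limma adjusted p = 0.000122), or 35.7% of the wild type level. In both, knockout array 2 was the lowest and knockout array 1 the highest of the knockout arrays. By exact permutation (two-sided) p was 0.0286 for each probe set, the lower limit of this design. The fall was larger by 0.83 log2 units in the brighter probe set (two-sided exact permutation p = 0.0286, 0.133 after adjustment over the 7 pairs). The dimmer one lay below the array medians in every knockout array and in wild type arrays 1 and 3. Over the other settings in which each was fitted, both stayed past the threshold, with log2 fold changes of -2.45 to -2.21 and -1.57 to -1.26.

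**Figure D2:**
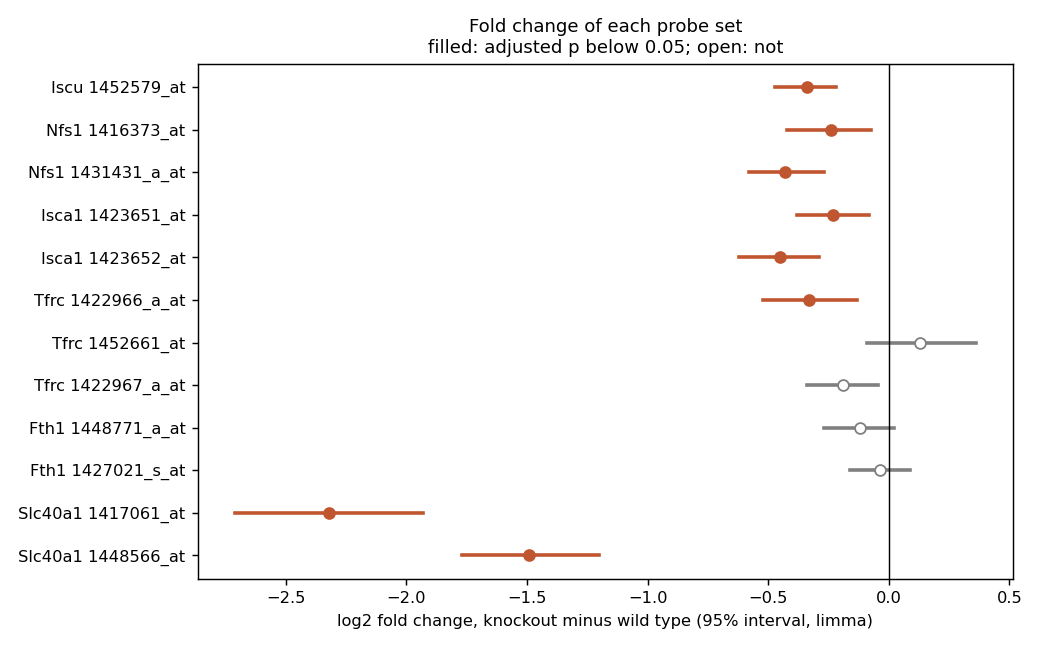
Log2 fold change of each member probe set, knockout minus wild type (x axis), with its 95% interval from limma; filled points passed an adjusted p of 0.05 and open points did not. The Slc40a1 probe sets lie at -2.32 and -1.49, the 5 assembly probe sets between -0.45 and -0.23, and the intervals of both Fth1 probe sets and of Tfrc 1452661_at include 0.

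Macrophages, which return iron from old red cells through ferroportin, and endothelial cells both express Slc40a1 in tissue, so markers of both, and of other cell types of muscle, were read beside it. In bulk muscle, fewer cells of a type and less RNA per cell cannot be told apart. All 12 macrophage markers rose, with a median log2 fold change of 1.19, among them Cd68 (2.05) and Mrc1 (1.32). Their summed intensity lay between 3839 and 4663 in wild type and between 8508 and 14287 in knockout, so Slc40a1 fell while these markers rose. Of 8 endothelial markers, 7 fell and none rose, with a median of -1.02 and Kdr at -1.28, and their summed intensity went from between 3815 and 4257 to between 1957 and 2094. Of 9 red blood cell markers listed, 5 were measured, with no beta-globin gene among them. Alas2, of the first enzyme of erythroid heme synthesis, fell (-0.70) and the other 4 did not pass. The sums of the 5 were 337 to 382 in wild type and 270 to 316 in knockout. Hba-a1 and Slc4a1 had wild type means of only 4.91 and 5.01 log2 units. Whether they read red cells above background was not tested. Of 6 fibroblast markers, 4 rose and none fell, with a median of 0.68, among them the collagen genes Col3a1 (1.27) and Col1a1 (0.96), and their summed intensity went from between 18591 and 21926 to between 23757 and 35806. The 2 adipocyte markers measured, Adipoq (-0.45) and Cidec (-0.82), did not pass (limma adjusted p = 0.281 and 0.0641), with sums of 1711 to 3275 in wild type and 1072 to 2258 in knockout. The lowest wild type mean of a marker was that of Itgam at 4.50 log2 units, where the lowest values of the arrays lay between 3.625 and 3.795. The part of these cell types in the fall of Slc40a1 was not tested.

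**Figure D3:**
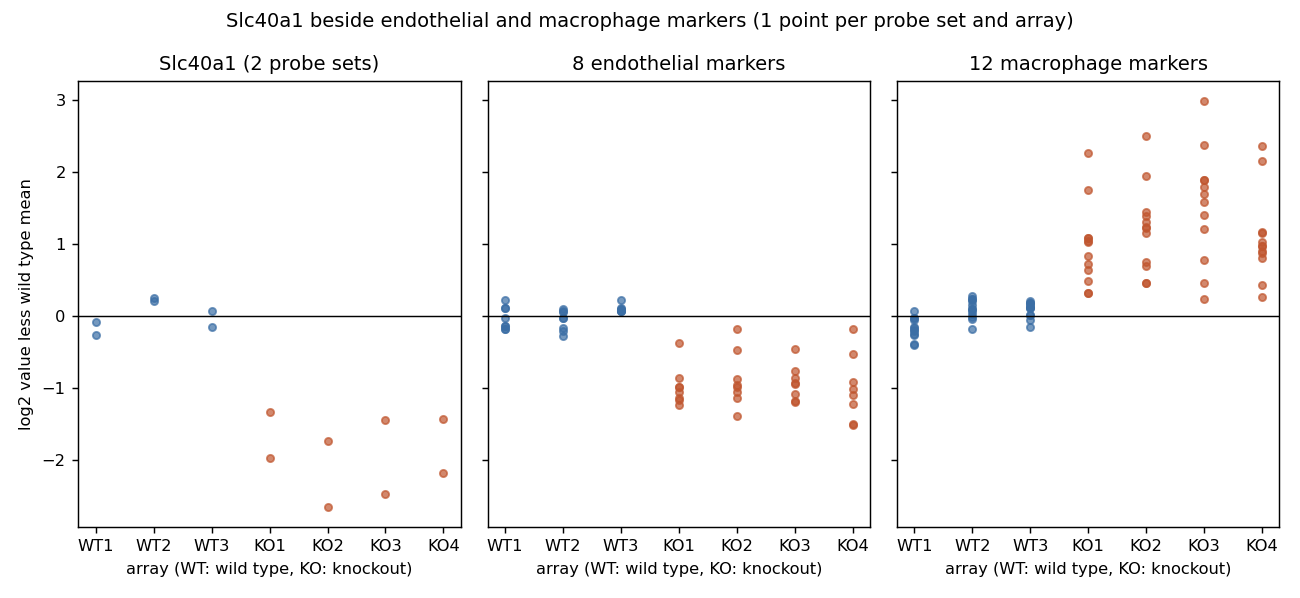
Log2 value less the wild type mean (y axis) on each of the 7 arrays (x axis) for the 2 Slc40a1 probe sets, the 8 endothelial markers and the 12 macrophage markers, 1 point per probe set and array; wild type blue, knockout orange. Slc40a1 and the endothelial markers lie below 0 in all knockout arrays, and the macrophage markers above it.

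The genes whose profile over the 7 arrays was most like that of Slc40a1 1417061_at, by the root mean square difference of log2 values less their wild type mean among 20378 probe sets of other genes, were Hnmt, Plin5 and As3mt. Hnmt, of histamine N-methyltransferase, differed by 0.163 log2 units and fell by 2.23. Plin5, of a lipid droplet protein of oxidative tissue, differed by 0.194 and fell by 2.21. As3mt, of the arsenite methyltransferase, differed by 0.20 and fell by 2.56. With so large a fall, this measure mostly picks genes with a fall of like size. It does not show a shared pattern beyond that.

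The wider pathway was read from 4 lists, each gene by its brightest probe set. Of all 12393 genes read that way, 15.5% fell and 16.3% rose, with a median of 0.013. Of 10 measured genes of mitochondrial iron-sulfur assembly outside the set, 4 fell, none rose and 6 did not pass, with a median of -0.19. Isca2, the partner of Isca1, measured 11.55, 11.65 and 11.39 in wild type and 11.01, 10.73, 10.88 and 10.82 in knockout, a log2 fold change of -0.67 (SE 0.087, limma adjusted p = 0.000795). Nfu1, of a late carrier that serves lipoate synthesis and respiratory complexes, went from 11.17, 11.14 and 11.20 to 10.84, 10.63, 10.73 and 10.70, a change of -0.44 (SE 0.062). Ndufab1, of the acyl carrier protein that is also a subunit of the desulfurase complex, changed by -0.61 (SE 0.087), with its other 2 probe sets at -0.69 and -0.57. The fourth was Fdx1, of a ferredoxin, at -0.67 (SE 0.10), named after its value was seen. In each of these 4 no knockout array reached a wild type one. The cochaperone gene Hscb (-0.093), the chaperone gene Hspa9 (-0.045) and the mitoferrin genes Slc25a37 (-0.13) and Slc25a28 (0.08), of mitochondrial iron import, did not pass (limma adjusted p = 0.293 to 0.738). Hspa9 had 3 other probe sets, of which 1 dim one rose by 0.25 (limma adjusted p = 0.0196) and the other 2 measured -0.14 and -0.014.

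Of 9 measured genes of the cytosolic assembly route, 3 fell, 1 rose and 5 did not pass, with a median of -0.057. Over all genes, 15.5% fell and 16.3% rose, and with so few genes here each one moves the share much. Ciapin1, of an electron carrier at the start of that route, measured 10.77, 10.77 and 10.63 in wild type and 10.07, 9.88, 9.96 and 9.94 in knockout, a log2 fold change of -0.76 (SE 0.065, limma adjusted p = 0.000139), and -1.05 in its other probe set. Ciao3 changed by -0.44 (SE 0.10). Ciao2a changed by -0.50 (SE 0.16, limma adjusted p = 0.0444), a call lost without wild type array 2 (0.134) or 3 (0.163) or knockout array 2 (0.104) or 3 (0.106), with log2(value + 16) (0.0515), with quantile normalization (0.0514), with arrays centred on their median (0.0521) and in the replicate block fit (0.0729), in a range of 0.0281 to 0.163 over all settings. Bola2, of a partner of the cytosolic glutaredoxin in cluster transfer, rose by 0.42 (SE 0.065), although 2 of its 4 other probe sets measured 0.024 and 0.066.

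Among 24 measured genes of proteins that carry or bind these clusters, 13 fell, 1 rose and 10 did not pass, with a median of -0.30. Of all genes, 15.5% fell and 16.3% rose. Most of this list lay above the median level, where probe sets passed more often. In the fit of only those probe sets, 14 of its 20 genes passed, against 47.5% of all. Etfdh, of the enzyme that feeds electrons from fatty acid oxidation to ubiquinone, changed by -0.99 (SE 0.11), to 50.2% of wild type. Sdhb, of the iron-sulfur subunit of complex II, measured 14.58, 14.59 and 14.59 in wild type and 14.15, 13.92, 14.09 and 13.97 in knockout, a change of -0.56 (SE 0.066). Aox1, of an aldehyde oxidase, changed by -0.63 (SE 0.064). Abce1, of a ribosome recycling factor, rose by 0.31 (SE 0.069). Adjusted p by limma lay between 0.000259 and 0.0112 for these 4 genes. Aco1, whose product is both cytosolic aconitase and iron regulatory protein, measured -0.16 (SE 0.14, limma adjusted p = 0.438), and Lias, of lipoate synthase, -0.071 (SE 0.053, limma adjusted p = 0.364).

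Of 27 further genes of iron uptake, storage and export, 3 rose, 4 fell and 20 did not pass, with a median of -0.086. Both shares were no larger than those over all genes, of which 15.5% fell and 16.3% rose. Hfe, whose product binds the transferrin receptor, measured 10.05, 9.44 and 9.84 in wild type and 8.57, 7.97, 7.95 and 8.17 in knockout, a log2 fold change of -1.61 (SE 0.18, limma adjusted p = 0.000409), and -1.42 in its other probe set. Steap4, of a metalloreductase, changed by -1.04 (SE 0.11) and Flvcr1, of a transporter described as a heme exporter, by -0.88 (SE 0.15). The fourth to fall was Bmp6, of a growth factor that endothelial cells release to raise hepcidin (-0.49, SE 0.12), named after its value was seen. Slc39a14, of a transporter for iron not bound to transferrin, rose by 0.55 (SE 0.11, limma adjusted p = 0.00714), from 8.13, 7.91 and 7.82 to 8.35, 8.77, 8.47 and 8.42, while its other probe set measured 0.09. Blvra, of biliverdin reductase, rose by 0.33 (SE 0.061). Lrp1, of a receptor that also takes up heme bound to hemopexin, rose by 0.57 (SE 0.18, limma adjusted p = 0.0418), with groups that overlapped, and lost its call without wild type array 1 (0.131) or 2 (0.15) or knockout array 2 (0.0955), 3 (0.0895) or 4 (0.0921), in a range of 0.0054 to 0.15 over all settings. Iron regulatory protein gene Ireb2 (0.069), the ferritinophagy receptor gene Ncoa4 (-0.094), the heme oxygenase gene Hmox1 (-0.12) and the divalent metal transporter gene Slc11a2 (0.17) did not pass (limma adjusted p = 0.15 to 0.493) in their brightest probe sets. Of the other 2 Slc11a2 probe sets, 1 rose by 0.40 (limma adjusted p = 0.00801) and 1 measured 0.017. Among genes whose brightest probe set did not pass, a dimmer one did in 4 of 20 genes of this list (Slc11a2, Steap3, Slc39a8 and Cp), 2 of 10 of the cluster-binding list (Ndufs8 and Elp3), 1 of 5 of the cytosolic list (Mms19) and 1 of 6 of the mitochondrial list (Hspa9), all named after their values were seen. The dimmer probe sets that passed rose for Slc11a2 and Hspa9 and fell for the other genes. That of Mms19 measured -0.45, while its brightest measured 0.19.

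**Figure D4:**
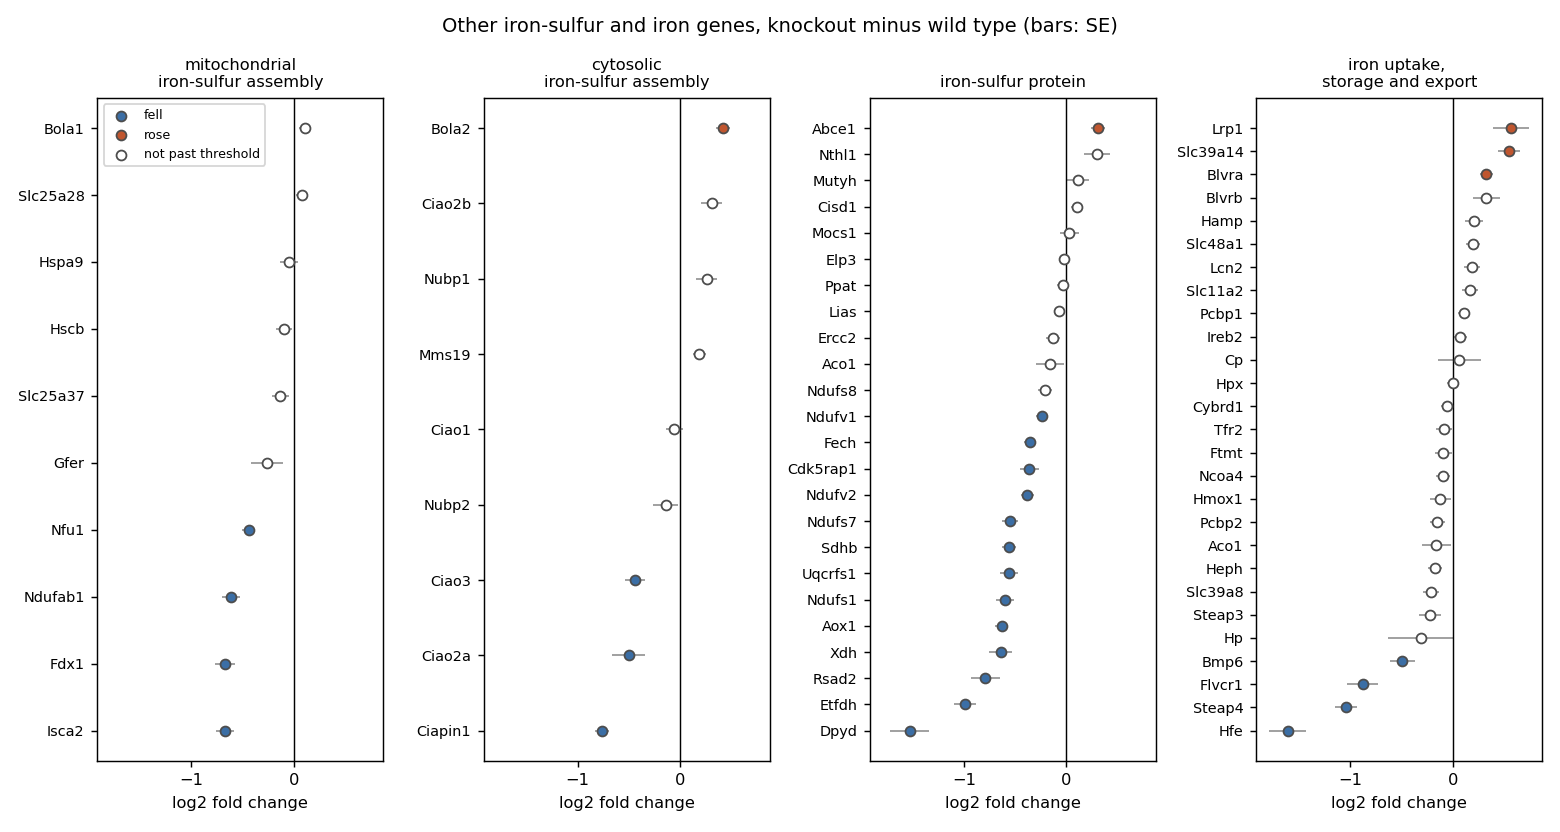
Log2 fold change, knockout minus wild type (x axis), of the measured genes of each of the 4 lists, with SE bars; blue points fell, orange points rose and open points did not pass the threshold. In the cluster-binding protein list 13 of 24 genes are blue, and 19 lie below 0, while 20 of 27 genes of uptake, storage and export are open.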

How the data were processed

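Total RNA of 7 soleus samples (3 wild type, 4 knockout) was hybridised to one-colour arrays after in vitro transcription to biotin-labelled cRNA, per the labels' protocols. The authors deposited 1 linear intensity per probe set and array, made with RMA, which corrects background, normalizes arrays to each other and summarises probes, per the submitters' processing notes. Its version, the probe annotation and a genome build were not found in those notes. RMA narrows small differences at low intensity. Arrays have no sequencing depth, and their number limits the precision. Scan dates were not used here, so batches were not tested, and 0 columns belonged to other series.

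Intensities were taken to log2(value + 1). Knockout was compared with wild type with limma 3.58.1 in R 4.3.3 (lmFit, eBayes, two-sided), fitted on all 22626 probe sets left after 64 controls, with Benjamini-Hochberg adjustment over them, a threshold of 0.05 and no filter on dim probe sets. Intervals are 95% limma intervals of 1 probe set each. Single values were tested by exact permutation over the 35 divisions of the arrays. Genes were named from the 20380 probe sets with 1 symbol (691 had several, 1555 none), updated through RefSeq for 12369 of 12393 genes. Named genes were all members and, per list, up to 3 genes per direction with the smallest p among those past the threshold. The members and lists were chosen with earlier results of these data known. Duplicated arrays were looked for: any 2 arrays shared at most 1819 exactly equal values.

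On simulated data over 22626 probe sets with 200 changed, in 10 draws of this comparison, 93.6% of log2 fold changes of 1 and 61.8% of those of 0.5 were recovered, and 4.95% of calls were false. The simulated noise was independent between probe sets, and far fewer were changed than the 28.6% called in the data. These shares may thus not carry over to the real comparison. Alternatives covered the pseudocount, dim probe sets, scaling, the gene table, variance moderation, a replicate block, the controls and leaving out each array.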

Additional observations from a re-analysis of the deposited data

Results flagged for a closer look

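Of 29 knockout groups of 4 arrays checked, for the 12 member probe sets and the named genes of the lists, 1 held an array far from the others, where chance gives about 1 in 20. Steap4 measured 8.73 log2 units in knockout array 4 and between 9.10 and 9.14 in the other knockout arrays, a gap of 0.90 of the group's range, above Dixon's 95% critical value. All 4 values lay below wild type.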

How the results depend on the processing

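None of the 12 member probe sets reversed under any of the 16 alternatives in which it was fitted, and 8 of them kept their side of the threshold throughout; over 183 such values, 18 lost the call and 1 gained it, all in Nfs1 1416373_at, Isca1 1423651_at, Tfrc 1422966_a_at and Tfrc 1422967_a_at. With 1 probe set per gene, the brightest, 4 of 6 members passed (Iscu, Nfs1, Isca1 and Slc40a1), and 4082 of 12393 genes in all. Leaving out 1 array at a time left 5 to 8 member probe sets called, and 4878 to 6224 of all probe sets. In the lists it left 4 called in mitochondrial assembly each time, 3 to 6 in cytosolic assembly, 13 to 14 among cluster-binding proteins and 5 to 8 in uptake, storage and export. With the replicate number as a block, 6 of 12 members and 5060 of all probe sets passed; Nfs1 1416373_at (limma adjusted p = 0.0698) and Isca1 1423651_at (0.108) lost their calls, as did Ciao2a (0.0729), Ciao3 (0.0561) and Abce1 (0.0667). Deviations from the group means correlated between same-numbered arrays by -0.0976 to 0.0479, and between differently numbered ones by -0.1516 to 0.1503. Values from so few arrays cannot settle whether same-numbered arrays were paired, and the labels state no pairing. The fit with the controls was chosen after the data were seen. Signal over background was not assessed for dim probe sets.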
